A study of Homo sapiens with 14 samples.

Results

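The change inside cultures of PANC-1, an established human pancreatic ductal cancer line, was followed between 12 h and 24 h of exposure to proanthocyanidins (PA, plant polyphenols) at 20 µg/ml. It was measured by RNA sequencing as the 2 libraries at PA 24 h against the 2 libraries at PA 12 h, which are 4 of the 14 libraries of the study, over every expressed gene. The members were taken by treatment and time alone, so no measured value chose them. All 14 libraries are of the same line at low passage, grown in medium with fetal bovine serum, and differ in agent (PA or the vehicle DMSO) and in hours of exposure. DMSO at 12 h and at 24 h, with 2 libraries each, is used below to read the same hours without PA. The other 6 libraries, DMSO at 0 h and 3 h and PA at 3 h, entered the scaling, the filter on low counts and the estimate of the spread between libraries, and no comparison.

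As background, 3 programmes known from cultured cancer cells bear on these hours. ATF4 is a transcription factor whose protein is made when the initiation factor eIF2 is phosphorylated under amino acid, endoplasmic reticulum, haem or oxidative stress; it switches on CHOP (DDIT3), ATF3 and genes that restore or end the response. Genes of mitosis are transcribed late in the cell cycle, so in a bulk culture their RNA falls when fewer cells reach division. Immediate early genes and growth factor ligands such as HBEGF respond within minutes to hours to signalling through MAP kinases. In bulk RNA, fewer cells of one state and less RNA per cell cannot be told apart.

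The label of the cells was checked against marker genes. All 9 ductal cancer cell markers were in the table of counts; their summed level, in CPM (reads of a gene scaled to a common library size, with TMM factors), was 13468 to 18616 CPM at PA 12 h and 20994 to 24312 CPM at PA 24 h. Of these, the E-cadherin gene CDH1 was low, with 17 to 38 reads in each of the 4 libraries. The 9 acinar and islet markers in the table summed to 0.179 to 0.180 CPM at 12 h and had no read at 24 h, and 6 of them had no read in any of the 4. Leukocyte markers summed to 47.3 to 80.0 CPM at 12 h and 82.2 to 83.0 CPM at 24 h, mostly CD68, with MS4A1 at 0 reads; fibroblast markers to 23.0 to 24.0 and 20.6 to 20.95 CPM, mostly COL1A1, with COL1A2 and FAP at 0; and endothelial markers to 1.01 to 1.43 and 0.811 to 1.53 CPM, with TEK at 0. CDKN2A, which is deleted in PANC-1, had 0, 3, 0 and 1 reads.

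Reads counted in genes were 30721243 and 27801440 at PA 12 h and 34359848 and 34202995 at PA 24 h, within the range of 26403984 to 35213154 of the study. A count of 0 allows up to 3 reads, or 0.105 to 0.108 CPM in these libraries, which covers counting error only. The series text speaks of biological replication, but the labels do not say that libraries of a group came from separate cultures. A p-value below therefore speaks of the spread between libraries and no more. That spread was estimated over all 14 libraries together, so a test of PA does not use the spread of the PA libraries alone. Replicates of PA at 12 h and at 24 h were less alike (Spearman correlation across genes 0.978 and 0.989) than those of the other 5 groups (0.992 to 0.996). Among genes at 2 CPM or more in either library of a pair, PA 12 h replicate 2 was over 3-fold above replicate 1 in 161 genes and replicate 1 over replicate 2 in 11. At PA 24 h replicate 1 was over 3-fold above replicate 2 in 51 genes, against 5 the other way. In DMSO at 12 h and 24 h the same comparison gave 0 such genes in either direction. The 2 libraries at PA 12 h also had different trends of level on GC content (0.59 and 0.13 log2 per 10 percentage points) and on transcript length (-0.11 and 0.01 log2 per doubling), while PA 24 h stood at 0.34 and 0.50 and at -0.15 and -0.19. Reads of the mitochondrial genome took 7.75% and 6.02% of the PA 12 h libraries and 10.0% and 8.23% of the PA 24 h libraries. The part of these features in the results was not tested. Of 86 named genes called from 12 h to 24 h of PA, 48 were called again without each PA library. Of the others, 5 lost their call without PA 12 h replicate 1, 13 when PA 12 h replicate 2 was dropped, 32 without PA 24 h replicate 1 and 21 with PA 24 h replicate 2 left out.

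**Figure D1:**
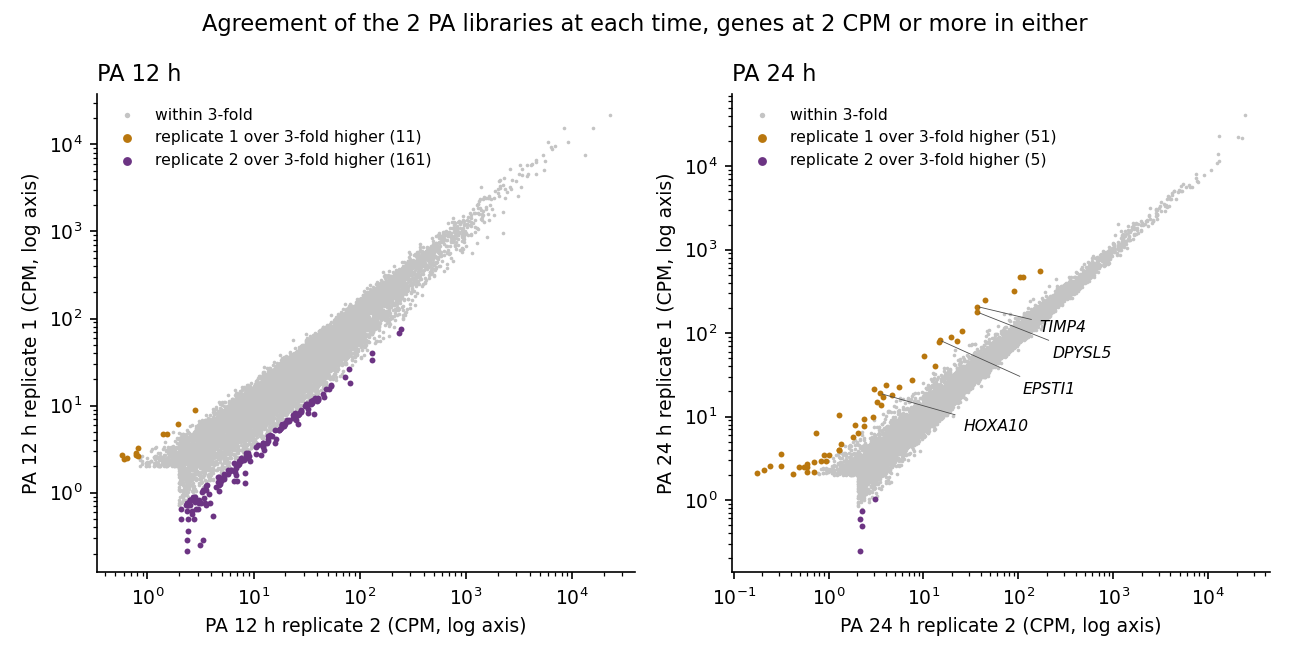
Level in CPM (log axes) of each gene at 2 CPM or more in replicate 1 against replicate 2, for PA 12 h (left) and PA 24 h (right); coloured points differ by more than 3-fold. At 12 h 161 genes lie on the side of replicate 2 and 11 on that of replicate 1, and at 24 h 51 lie on the side of replicate 1, TIMP4, DPYSL5, EPSTI1 and HOXA10 among them.

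Between 12 h and 24 h of PA, 2171 of 15181 tested genes passed an adjusted p of 0.05 in edgeR's quasi-likelihood test (14.3%), with 1001 higher at 24 h (6.59%) and 1170 lower (7.71%). The changes were moderate: the median size among the genes called was 0.74 on the log2 scale, and 494 of them changed at least 2-fold, 317 upward and 177 downward. At an unadjusted p under 0.05 there were 4498 genes, and the median change over all genes tested was -0.01. Both 24 h libraries lay above both 12 h libraries in 3478 genes (22.9%) and below them in 3543 (23.3%). The count of calls depended on the libraries: it was 4332 without PA 12 h replicate 1, 2323 when PA 12 h replicate 2 was dropped, 780 without PA 24 h replicate 1 and 1037 with PA 24 h replicate 2 left out. Called with all libraries and again without each of the 4 PA libraries were 437 genes, 213 higher and 224 lower. Higher genes made up 46.1% of the calls, but 54.3% with DESeq2's size factors in edgeR (1177 higher and 992 lower) and 54.3% by DESeq2 (1434 and 1207), so which direction held more calls turned with the scaling. In the authors' RPKM values, with limma on log2(RPKM + 1), 2076 genes were called and 21.7% of them were higher. With an RPKM of at least 1 the share was 21.4%, and the median change of all genes was -0.16, against which RPKM changes are read. A minimum change of 2-fold, tested with glmTreat, left 3 genes.

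**Figure D2:**
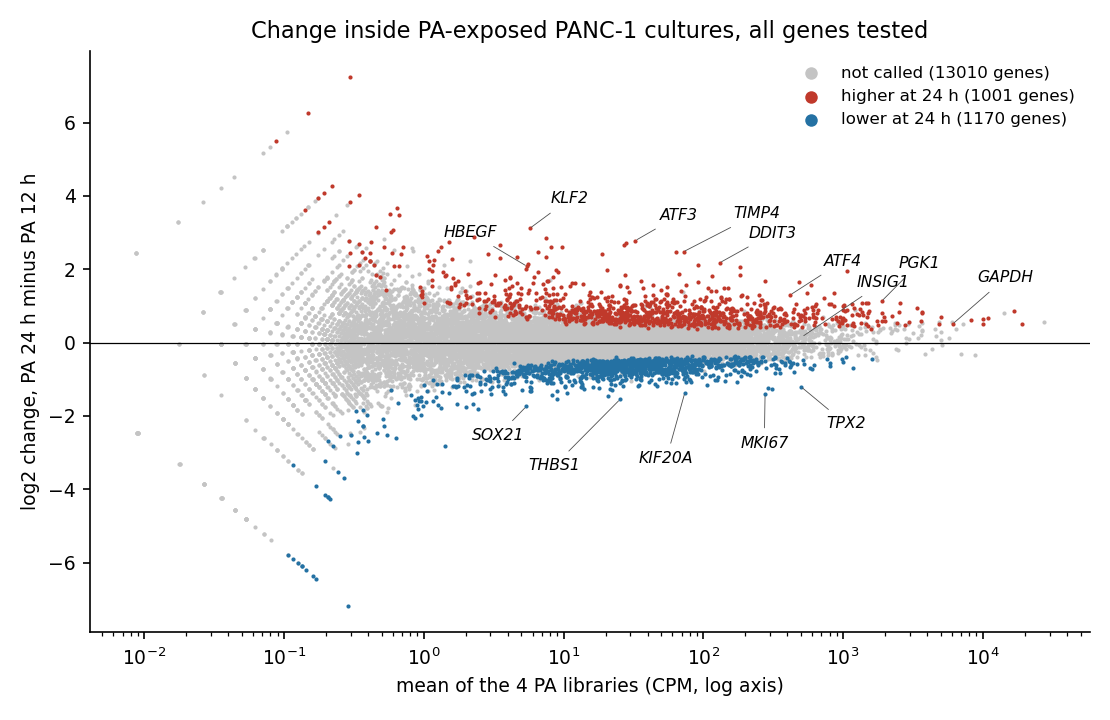
Log2 change from PA 12 h to PA 24 h for all 15181 genes tested against the mean level of the 4 PA libraries (CPM, log axis); red points are the 1001 genes higher and blue points the 1170 genes lower at 24 h at an adjusted p under 0.05. ATF3, DDIT3, ATF4, KLF2 and HBEGF stand among the rises and MKI67, TPX2 and KIF20A among the falls.

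The stress programme of ATF4 and CHOP rose. Of 14 tested members of that list, 11 were higher at 24 h (9 to 11 when any 1 PA library was left out), and the other 3 did not pass the test; the median change was 1.04, against -0.01 over all genes. ATF4 itself, the transcription factor at the head of the programme, had 265 and 219 CPM at 12 h and 611 and 582 CPM at 24 h. Both later libraries stood above both earlier ones, with a log2 change of 1.30 ± 0.15 SE, adjusted p = 0.000621. DDIT3, which encodes the pro-apoptotic factor CHOP, had 50.1 and 44.8 CPM at 12 h and 246 and 183 CPM at 24 h, and ATF3, a stress-induced repressor of the same bZIP family, had 9.53 and 7.04 CPM at 12 h and 50.5 and 63.2 CPM at 24 h. In neither gene did the 2 times overlap. The change of DDIT3 was 2.18 ± 0.20 SE, adjusted p = 0.000131, a 4.52-fold rise, and that of ATF3 was 2.78 ± 0.20 SE, adjusted p = 3.14e-05, a 6.87-fold rise. ATF3 lies at chr1:212565334-212620777 and DDIT3 at chr12:57516588-57521737 on GRCh38, both protein coding.

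Members downstream of ATF4 rose in part. CHAC1, an enzyme that degrades glutathione, had 15.6 and 10.1 CPM at 12 h and 33.1 and 42.6 CPM at 24 h (log2 change 1.56 ± 0.23 SE, adjusted p = 0.00146), and SESN2, a leucine sensor that restrains mTORC1, had 14.3 and 9.64 CPM at 12 h and 35.7 and 50.1 CPM at 24 h (1.84 ± 0.25 SE, adjusted p = 0.00104). Both rose without overlap of the libraries. PPP1R15A (GADD34), which brings a phosphatase back to eIF2, had 98.6 and 71.6 CPM at 12 h and 189 and 183 CPM at 24 h and changed by 1.13. NUPR1, a small chromatin protein of stressed pancreas, had 60.9 and 40.3 CPM at 12 h and 186 and 172 CPM at 24 h and changed by 1.82, and TRIB3, a pseudokinase that CHOP induces, changed by 0.94. The asparagine synthetase gene ASNS (0.64), CEBPG (0.64) and CEBPB (0.50) rose less. The 3 members that did not pass were the amino acid transporter subunits SLC3A2 (0.12, adjusted p = 0.660) and SLC7A5 (-0.37, adjusted p = 0.196) and the lipoprotein receptor gene VLDLR (0.06, adjusted p = 0.863). Enzymes of serine and one-carbon metabolism, several of which ATF4 is known to drive, were higher in 4 of 9: MTHFD2 (0.98), PHGDH (0.78), PSPH (0.68) and PSAT1 (0.50); MTHFD1 fell by 0.40 on the log2 scale. Without PA 24 h replicate 1 or replicate 2, 2 of the 4 rises were called. Of 20 aminoacyl-tRNA synthetases 3 rose, CARS (0.62), SARS (0.46) and GARS (0.43). Of 17 chaperones of the endoplasmic reticulum 1, PDIA4, was lower (-0.40), and the median was -0.15. Of 12 cytosolic heat shock genes BAG3 (-0.44) and HSPA1A (-0.48) were lower. Among all genes tested 6.59% were higher and 7.71% lower.

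The rise of the stress genes was set against the same hours in DMSO. In DMSO ATF3 had 2.91 and 3.61 CPM at 12 h and 3.20 and 3.99 CPM at 24 h, DDIT3 30.7 and 39.3 CPM at 12 h and 36.2 and 40.2 CPM at 24 h and ATF4 212 and 259 CPM at 12 h and 247 and 280.0 CPM at 24 h, and in each gene the libraries of the 2 times lay close together. The test of the difference, the PA change minus the DMSO change, called 64 genes over the whole table (0.422%), of which 40 were positive (0.263%) and 24 negative (0.158%). Of the 14 stress members 6 had a positive difference: ATF3 (2.64 ± 0.29 SE, adjusted p = 0.00240), SESN2 (2.13), DDIT3 (2.05 ± 0.28 SE, adjusted p = 0.00756), CHAC1 (2.02), PPP1R15A (1.67) and ATF4 (1.14 ± 0.21 SE, adjusted p = 0.0378). The number was 8 without PA 12 h replicate 1, 7 when PA 12 h replicate 2 was dropped, 4 without PA 24 h replicate 1 and 2 with PA 24 h replicate 2 left out. It was 2 without DMSO 12 h replicate 1 or DMSO 24 h replicate 2, and 1, ATF3, when DMSO 12 h replicate 2 or DMSO 24 h replicate 1 was dropped. Over all genes tested 8 differences were called without DMSO 12 h replicate 1 and 4 when DMSO 12 h replicate 2 or DMSO 24 h replicate 1 was dropped. With DMSO 24 h replicate 2 left out there were 14. The median of the list in DMSO was -0.12. NUPR1 was higher at 24 h in DMSO too, from 12.1 and 13.8 to 25.1 and 22.9 CPM (log2 change 0.89, edgeR adjusted p = 0.0504). Its difference between the arms was not called (adjusted p = 0.311). Against DMSO at the same hour, ATF4 stood at a log2 difference of 0.04 at 12 h and 1.18 at 24 h, DDIT3 at 0.44 and 2.49, and ATF3 at 1.34 and 3.98; these values share the PA libraries with the change itself and are given for the level only.

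**Figure D3:**
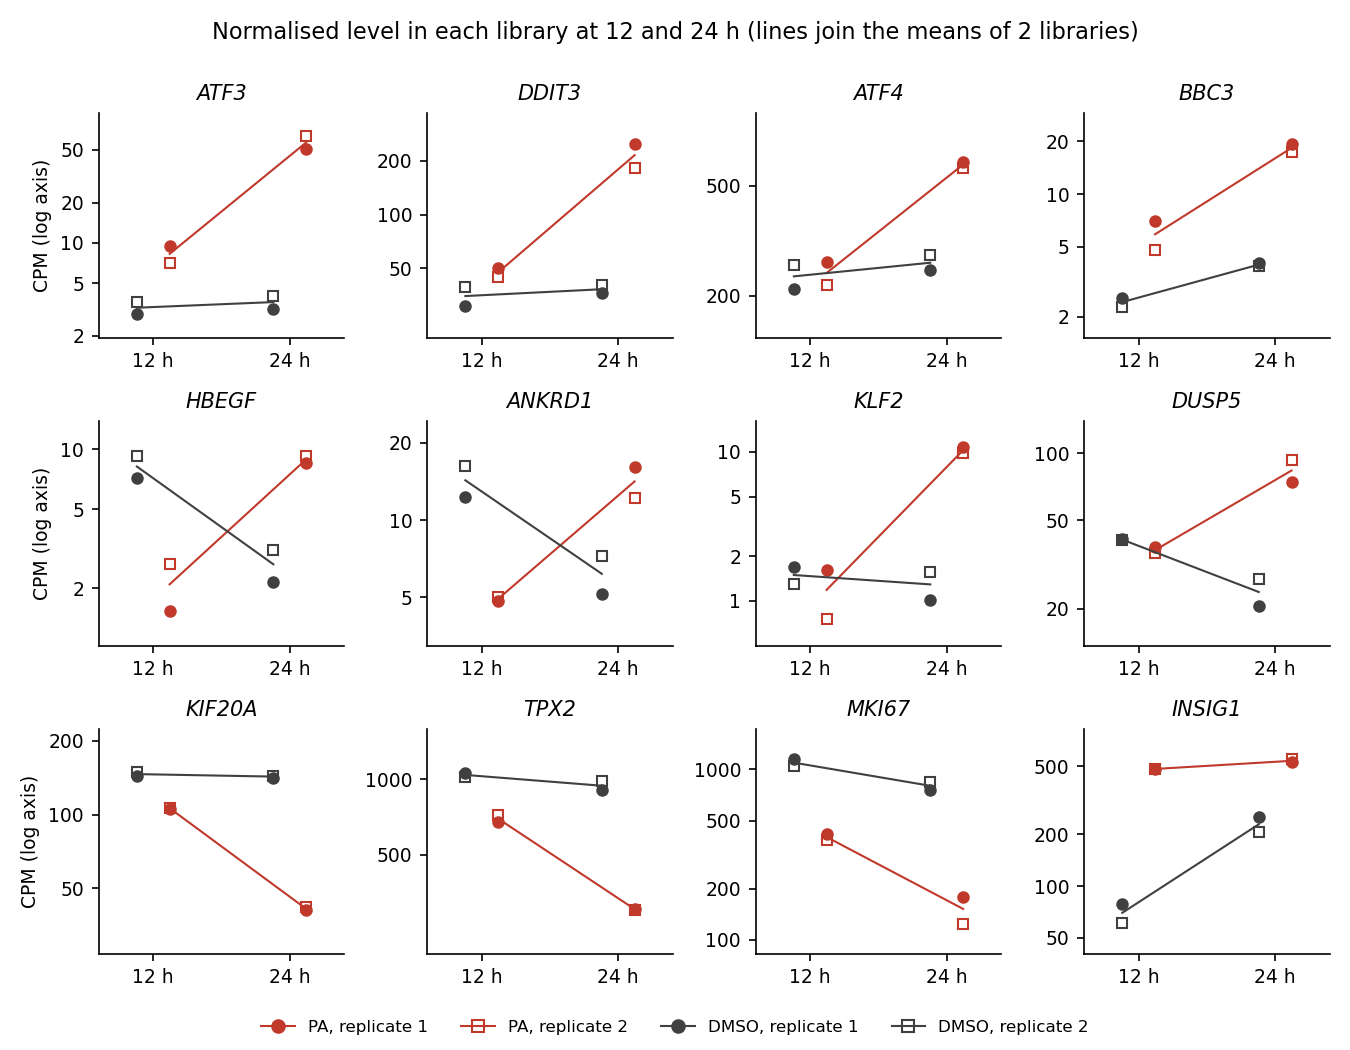
Level in CPM (log axes, a scale of its own for each gene) of 12 genes in each PA library (red) and each DMSO library (grey) at 12 h and 24 h; filled circles are replicate 1, open squares replicate 2, and lines join group means. ATF3, DDIT3 and ATF4 climb in PA, with slightly higher DMSO means at 24 h. KLF2 climbs in PA alone among the arms shown, and BBC3 climbs in both. HBEGF, ANKRD1 and DUSP5 climb in PA and fall in DMSO. KIF20A falls in PA with a level DMSO line. TPX2 falls in PA and is slightly lower at 24 h in DMSO, MKI67 is lower at 24 h in both, and INSIG1 climbs in DMSO.

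Promoters of 13 of the 15 listed stress genes were in the RefSeq table (GRCh38.p14), and the 250 bases before each start were searched on both strands for TGATGNAA, the composite C/EBP-ATF element that ATF4 heterodimers are known to bind (N is any base), and for TGACGTCA, the cyclic AMP response element. TGATGNAA occurred in 3 of the 13 (ATF3, ASNS and CHAC1), against 3.14% of 35116 promoters, and TGACGTCA in 1, PPP1R15A, against 1.65%. Of the 13 genes 10 were called higher, those with a motif among them. Whether a motif went with the call was not tested. The 2 motifs do not overlap in these promoters. A match is a description of letters and not of binding. Stretches of 120 bases are shown for CHAC1 (chr15:40953242-40953361, plus strand, from 229 to 110 bases before the start) and PPP1R15A (chr19:48872301-48872420, plus strand, from 120 bases before the start up to it), the pair that carries one motif each, 5′ to 3′ on the strand of the gene. Capitals mark TGATGNAA, which CHAC1 holds on the other strand, and TGACGTCA.
CHAC1: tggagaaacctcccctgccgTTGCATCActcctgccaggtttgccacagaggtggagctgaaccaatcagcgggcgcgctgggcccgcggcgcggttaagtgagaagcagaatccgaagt
PPP1R15A: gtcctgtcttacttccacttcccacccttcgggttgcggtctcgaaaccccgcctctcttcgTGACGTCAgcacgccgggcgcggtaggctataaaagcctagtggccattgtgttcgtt

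Several genes of immediate early and growth factor signalling rose in PA and fell in DMSO. Of 21 tested immediate early genes 5 were higher at PA 24 h (4 to 6 without any 1 PA library) and KLF10 was lower (-0.86); the median was 0.31. KLF2, a zinc finger transcription factor, had the largest rise that the naming rule picked, with 1.62 and 0.750 CPM at 12 h and 10.8 and 9.76 CPM at 24 h (log2 change 3.11 ± 0.35 SE, adjusted p = 0.000552; chr19:16324817-16327874, protein coding). It was low at 12 h in both libraries and at a like low level in DMSO, with 1.68 and 1.30 CPM at 12 h and 1.01 and 1.56 CPM at 24 h. DUSP5, a phosphatase that ERK signalling induces and that inactivates ERK in the nucleus, had 37.8 and 35.8 CPM at 12 h and 74.3 and 93.2 CPM at 24 h in PA. In DMSO it went the other way, with 41.3 and 40.6 CPM at 12 h and 20.5 and 27.1 CPM at 24 h, and the changes were 1.19 ± 0.18 SE, adjusted p = 0.00210, in PA and -0.78, adjusted p = 0.0412, in DMSO. DUSP6, its cytoplasmic relative, rose by 0.91 and JUND, an AP-1 subunit, by 1.0. FOS (0.86), FOSB (1.0), EGR1 (1.10), JUN (0.31), JUNB (0.11) and MYC (-0.17) did not pass the test in PA. In DMSO, where 1.59% of all genes tested were called lower, 7 of the 21 were lower, JUN, FOSL1, FOSL2, KLF4, MYC, KLF10 and DUSP5, and 5 had a positive difference between the arms: KLF2 (3.32), ATF3 (2.64), DUSP5 (1.97), DUSP6 (1.47) and JUN (1.21). The number lower in DMSO was 2 without DMSO 24 h replicate 2. All 7 lost their call without any 1 of the other 3 DMSO libraries. Positive differences numbered 2 without DMSO 12 h replicate 1, 1 when DMSO 12 h replicate 2 or DMSO 24 h replicate 1 was dropped, and 3 with DMSO 24 h replicate 2 left out.

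HBEGF, a ligand of the EGF receptor (chr5:140332843-140346631, protein coding), had the largest difference between the arms among the 64 genes called. In PA its libraries held 1.55 and 2.64 CPM at 12 h and 8.53 and 9.20 CPM at 24 h, and in DMSO 7.12 and 9.21 CPM at 12 h and 2.15 and 3.13 CPM at 24 h. It was low at 12 h and high at 24 h with PA and the reverse with DMSO, without overlap in either arm. The change was 2.08 ± 0.27 SE, adjusted p = 0.000847, in PA and -1.63, adjusted p = 0.00937, in DMSO, and the difference was 3.71 ± 0.37 SE, adjusted p = 0.00187. AREG, another ligand of that receptor, rose by 0.93 in PA with a difference of 1.09. The difference of AREG was not called without PA 24 h replicate 1 or any 1 DMSO library. Of 356 genes called over these hours in DMSO (2.35%), 5 were also called in PA in the opposite direction: HBEGF, ANKRD1, DUSP5, DUSP10 and SPRY2, all higher with time in PA and lower in DMSO. Without DMSO 24 h replicate 2 there were 2 such genes, and without any 1 of the other 3 DMSO libraries all 5 lost their call in DMSO. DUSP10, a phosphatase for p38 and JNK, changed by 0.63 in PA and -1.04 in DMSO, and SPRY2, a feedback inhibitor of receptor tyrosine kinases, by 0.50 and -0.73. ANKRD1, a muscle ankyrin repeat protein and a target of YAP, had 4.86 and 5.00 CPM at 12 h and 16.1 and 12.2 CPM at 24 h with PA and 12.4 and 16.2 CPM at 12 h and 5.13 and 7.22 CPM at 24 h with DMSO. The PA libraries rose and the DMSO libraries fell without overlap, with a difference of 2.74 ± 0.31 SE, adjusted p = 0.00240.

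RHOB, a small GTPase of endosomes that stress and growth factors induce (chr2:20447074-20449445, protein coding), had 33.2 and 24.2 CPM at 12 h and 87.8 and 121 CPM at 24 h (1.86 ± 0.20 SE, adjusted p = 0.000322) and 13.0 and 13.4 CPM at 12 h and 9.50 and 9.45 CPM at 24 h in DMSO; it rose in PA and its DMSO libraries ended below where they began. ATF3, HBEGF, ANKRD1 and RHOB were the 4 genes whose difference between the arms was called without each of the 8 libraries in turn; RHOB lies outside the naming rule and was picked after its values were seen. Of 17 targets of TGF-beta and YAP ANKRD1 was higher in PA and 4 were lower. The shares of all genes tested were 6.59% higher and 7.71% lower in PA, and 1.59% lower in DMSO. THBS1, which encodes the matrix protein thrombospondin-1, fell in both arms, from 26.8 and 48.8 to 12.9 and 13.0 CPM in PA and from 106 and 97.8 to 41.3 and 46.7 CPM in DMSO (PA change -1.55 ± 0.22 SE, adjusted p = 0.00141; difference -0.34, adjusted p = 0.806). The fall of THBS1 in DMSO was not called without any 1 DMSO library. In PA ID2, an inhibitor of helix-loop-helix factors, fell by 1.15 on the log2 scale. AXL, a receptor tyrosine kinase, fell by 0.63 and AMOTL1, which binds YAP, by 0.57. Without PA 24 h replicate 1, 1 of the 4 falls was called. CTGF, a secreted matrix-associated protein, changed by -0.10 in PA (adjusted p = 0.763) and by -1.46 in DMSO, where it fell, with a difference of 1.36. The call of this fall in DMSO was lost without DMSO 12 h replicate 2 or DMSO 24 h replicate 1. The call of the difference was lost without any 1 DMSO library or either PA 24 h library. Of 18 genes for matrix, laminins and integrins 4 were lower in PA, among them COL5A1 (-0.81), ITGA2 (-0.99) and COL4A1 (-0.59), and 4 were lower in DMSO. Without PA 24 h replicate 1 or replicate 2, 1 of the falls in PA was called. In DMSO 1 was called without DMSO 24 h replicate 2. All 4 lost their call without any 1 of the other 3 DMSO libraries.

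Many genes of mitosis fell in PA. Of 37 tested members 17 were lower at 24 h and 1, CENPE, was higher; the median change was -0.50. The number lower was 24 without PA 12 h replicate 1, 14 when PA 12 h replicate 2 was dropped (with 6 then higher), 12 without PA 24 h replicate 1 and 10 with PA 24 h replicate 2 left out. KIF20A, a kinesin of the central spindle (chr5:138178719-138187715, protein coding), had 106 and 107 CPM at 12 h and 40.7 and 42.0 CPM at 24 h. TPX2, which targets Aurora A to spindle microtubules (chr20:31739271-31801805, protein coding), had 674 and 717 CPM at 12 h and 304 and 301 CPM at 24 h, and MKI67, the Ki-67 proliferation antigen (chr10:128096659-128126385, protein coding), had 419 and 384 CPM at 12 h and 179 and 124 CPM at 24 h. In all 3 both later libraries were below both earlier ones. The changes were -1.36 ± 0.13 SE, adjusted p = 0.000131, -1.20 ± 0.11 SE, adjusted p = 0.000131 and -1.40 ± 0.16 SE, adjusted p = 0.000552, respectively.

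Over the same hours DMSO gave 144 and 149 CPM at 12 h and 142 and 144 CPM at 24 h for KIF20A, 1059 and 1022 CPM at 12 h and 905 and 979.7 CPM at 24 h for TPX2 and 1152 and 1041 CPM at 12 h and 760.3 and 843 CPM at 24 h for MKI67. The DMSO libraries of KIF20A lay close together, and those of TPX2 and MKI67 were lower at 24 h, with changes that did not pass the test (TPX2 -0.14, adjusted p = 0.556; MKI67 -0.45, adjusted p = 0.144). The difference between the arms was called for 6 members, all negative: KIF20A (-1.33 ± 0.17 SE, adjusted p = 0.00644), TPX2 (-1.06 ± 0.16 SE, adjusted p = 0.0128), CCNB2 (-0.96), AURKA (-0.92), BIRC5 (-0.91) and CCNB1 (-0.86). They encode B-type cyclins, Aurora A, survivin and spindle proteins; the number was 20 without PA 12 h replicate 1, 12 when PA 12 h replicate 2 was dropped and 2 without either PA 24 h library. It was 1 without DMSO 24 h replicate 2. All 6 lost their call without any 1 of the other 3 DMSO libraries. The difference of MKI67 was -0.95, adjusted p = 0.0941. Outside the list, KIF4A (-1.16 in PA, -0.02 in DMSO), SPAG5 (-1.02, 0.09), CDCA8 (-0.79, 0.10), RACGAP1 (-0.73, 0.20) and NCAPH (-0.66, 0.23), all of which act in chromosome condensation, the spindle or cytokinesis, also had a negative difference and were picked after their values were seen. OIP5, which loads the centromeric histone, had 6.48 and 9.61 CPM at 12 h and 3.60 and 3.35 CPM at 24 h (-1.21) and a difference of -1.49. Of the 24 negative differences over the whole table, 22 were called lower in PA. There were 4 without DMSO 24 h replicate 2. All 24 lost their call without any 1 of the other 3 DMSO libraries.

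Other mitotic genes that passed were the kinases PLK1 (-1.08), BUB1 (-1.11) and BUB1B (-0.97), the activator of the anaphase-promoting complex CDC20 (-0.99) and CCNA2 (-0.83). PLK1 had 113 and 90.7 CPM at 12 h and 44.5 and 51.3 CPM at 24 h, and CDC20 had 113 and 81.9 CPM at 12 h and 49.7 and 48.4 CPM at 24 h; the times did not overlap in either. In a further set the 2 libraries at 12 h were far apart. NDC80, a kinetochore subunit, had 11.5 and 40.9 CPM at 12 h and 28.5 and 18.8 CPM at 24 h, and TOP2A, the topoisomerase of dividing cells, 63.7 and 189 CPM at 12 h and 92.5 and 56.2 CPM at 24 h. For NDC80 both 24 h libraries lay between those of 12 h and for TOP2A 1 did, and neither passed the test (NDC80 -0.15, adjusted p = 0.843; TOP2A -0.76, adjusted p = 0.184). CENPE, the kinetochore kinesin, went from 1.58 and 2.64 to 8.25 and 3.70 CPM (1.5 ± 0.40 SE, adjusted p = 0.0246), and its call was lost without PA 24 h replicate 1 (0.80), as it was with PA 12 h replicate 1 left out. All 4 PA libraries lay below those of DMSO, which held 103 and 118 CPM at 12 h and 82.6 and 131 CPM at 24 h.

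Of 32 mitotic genes with a promoter in the RefSeq table, 24 held CCAAT, the box that NF-Y is known to bind, in the 250 bases before the start on either strand, against 32% of 35116 promoters. TTTGAA, the core of the cell cycle homology region through which the DREAM and MuvB complexes are known to act, occurred in 15, against 13.3%. Among the 14 of these genes called lower, 12 held CCAAT and 7 TTTGAA. The last 120 bases before the start are shown for PLK1 (chr16:23678769-23678888, plus strand) and MKI67 (chr10:128126424-128126543, minus strand), which hold both motifs, and KIF20A (chr5:138178992-138179111, plus strand), which holds 2 copies of CCAAT and no TTTGAA in this window, 5′ to 3′ on the strand of the gene. Capitals mark CCAAT, written ATTGG where it lies on the other strand, and TTTGAA; in MKI67 the last pair shares 1 base.
KIF20A: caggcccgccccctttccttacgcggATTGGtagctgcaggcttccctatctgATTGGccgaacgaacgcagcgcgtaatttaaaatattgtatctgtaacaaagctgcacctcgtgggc
PLK1: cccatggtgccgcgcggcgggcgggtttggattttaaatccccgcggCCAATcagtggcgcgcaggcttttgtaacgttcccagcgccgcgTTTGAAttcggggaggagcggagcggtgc
MKI67: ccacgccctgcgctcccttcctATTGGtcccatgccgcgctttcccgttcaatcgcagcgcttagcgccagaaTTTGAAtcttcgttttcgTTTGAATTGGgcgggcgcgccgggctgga

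Of 30 DNA replication genes 5 were lower, against 7.71% of all genes tested. They were MCM10 (-0.96), MCM4 (-0.56), POLA2 (-0.52), GINS1 (-0.48) and MCM3 (-0.42), subunits and loaders of the replicative helicase and of polymerase alpha. The median was -0.21, 24 of 30 had a negative sign, and the count was 10 without PA 12 h replicate 1, 3 without PA 24 h replicate 1 and 2 with PA 24 h replicate 2 left out. Of 21 genes for homologous recombination and the Fanconi pathway EXO1 (-1.01), FANCA (-0.78) and FANCD2 (-0.58) were lower; the median of -0.23 turned to 0.32, with 5 members higher and 2 lower, without PA 12 h replicate 2. PRKDC, the catalytic subunit of the DNA-dependent protein kinase, had 409 and 466 CPM at 12 h and 180.1 and 181 CPM at 24 h (-1.28 ± 0.13 SE, adjusted p = 0.000247). It fell in DMSO as well (-0.63, adjusted p = 0.0224), and the difference was not called (adjusted p = 0.193). Its fall in DMSO was not called without any 1 DMSO library. Among regulators of the cell cycle, CDKN1A, the inhibitor p21, had 63.3 and 47.2 CPM at 12 h and 89.7 and 116 CPM at 24 h (0.89 ± 0.17 SE, adjusted p = 0.00581), CDKN2D rose by 0.79 and CDKN1B by 0.51. CCND1, cyclin D1, went from 411 and 500.0 to 261 and 254 CPM (-0.82) and also fell in DMSO (-0.71). Without any 1 DMSO library this fall in DMSO was not called. CCNE1 (-0.52) and CDK6 (-1.23) were lower in PA. The rise of CDKN1A was not called without PA 24 h replicate 2 (0.69), and that of CDKN2D was called when PA 12 h replicate 1 was left out and not without any other PA library. ZMAT3, which encodes an RNA-binding protein, was lower (-0.66).

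The list of p53 targets had 3 of 13 tested members higher and 1 lower, ZMAT3, given above, with a median of 0.21. Over all genes tested 6.59% were higher and 7.71% lower. The members higher were CDKN1A, BBC3 (PUMA, a BH3-only activator of apoptosis) and GADD45A, a stress gene of growth arrest. BBC3 had 7.01 and 4.79 CPM at 12 h and 19.4 and 17.4 CPM at 24 h in PA and 2.57 and 2.27 CPM at 12 h and 4.06 and 3.86 CPM at 24 h in DMSO, and GADD45A had 27.0 and 27.0 CPM at 12 h and 57.7 and 53.3 CPM at 24 h and 46.0 and 56.9 CPM at 12 h and 32.0 and 38.9 CPM at 24 h. Both rose in PA without overlap; GADD45A ended below its start in DMSO while BBC3 ended above it. The changes in PA were 1.64 ± 0.21 SE, adjusted p = 0.000811, and 1.04 ± 0.17 SE, adjusted p = 0.00251. The difference between the arms was called for GADD45A (1.58 ± 0.23 SE, adjusted p = 0.0128) but not for BBC3 (0.93, adjusted p = 0.313). That of GADD45A was lost without PA 24 h replicate 1, DMSO 12 h replicate 2 or DMSO 24 h replicate 1. In the BCL2 family 2 of 13 tested members were higher, BBC3 again and PMAIP1 (NOXA, 0.76). MCL1, an anti-apoptotic member, had 196 and 221 CPM at 12 h and 267 and 267 CPM at 24 h (0.36, adjusted p = 0.0553). It fell in DMSO (-0.54), with a difference of 0.90. Without any 1 DMSO library neither that fall nor the difference was called. GDF15, a stress cytokine, had 289 and 175 CPM at 12 h and 851 and 610.3 CPM at 24 h (1.66 ± 0.32 SE, adjusted p = 0.00566) with DMSO libraries close together (80.6 and 84.4 CPM at 12 h and 78.7 and 84.9 CPM at 24 h); it was picked after its values were seen.

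Some genes of translation and energy metabolism rose by small amounts. Of 29 cytosolic ribosomal protein genes 16 were higher at PA 24 h and 28 had a positive sign, with a median of 0.48 in PA and 0.41 in DMSO. RPL32 had 1222 and 1022 CPM at 12 h and 1723 and 1942 CPM at 24 h (0.71), with both later libraries above both earlier ones, and RPL27 (0.68) and RPS14 (0.75) rose by like amounts. The count was 20 without PA 12 h replicate 1, 5 when PA 12 h replicate 2 was dropped and 4 without either PA 24 h library. These genes are short and have many processed pseudogenes, which can share reads with them. Of 23 nuclear genes of the respiratory chain 8 were higher (median 0.41 in PA, 0.33 in DMSO), such as COX6C, a subunit of cytochrome c oxidase, with 157 and 165 CPM at 12 h and 373 and 342 CPM at 24 h (1.15 ± 0.15 SE, adjusted p = 0.000811). UQCRQ, of complex III, rose by 1.14 and SDHC, of complex II, by 0.80; the count was 16 without PA 12 h replicate 1, 6 when PA 12 h replicate 2 or PA 24 h replicate 1 was dropped and 2 with PA 24 h replicate 2 left out. Of the 13 protein genes of the mitochondrial genome 5 were higher and all 13 had a positive sign, with a median of 0.54 in PA and 0.03 in DMSO. MT-CO1 had 15416 and 8388 CPM at 12 h and 22326 and 20591 CPM at 24 h: PA 12 h replicate 1 stood between replicate 2 and the 24 h libraries. MT-ND6 (1.08) and MT-ND3 (0.96), subunits of complex I, rose as well. All 13 were called without PA 12 h replicate 1, 3 when PA 12 h replicate 2 was dropped, 1 without PA 24 h replicate 1 and 2 with PA 24 h replicate 2 left out.

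Glycolysis genes were higher in 8 of 21 and lower in 2, with a median of 0.49. PGK1, phosphoglycerate kinase, had 1347 and 1019.8 CPM at 12 h and 2313 and 2854 CPM at 24 h (1.13 ± 0.15 SE, adjusted p = 0.000830), TPI1, triose phosphate isomerase, rose by 1.08 and LDHA, lactate dehydrogenase A, by 0.52, ALDOC, a neuronal aldolase, by 1.27 (and by 1.88 in DMSO), while GAPDH, a common reference gene, had 5877 and 4171 CPM at 12 h and 6679 and 7597 CPM at 24 h and rose by 0.51. The glucose transporter gene SLC2A1 fell by 0.52 and the hexokinase gene HK2 by 0.44 on the log2 scale. Rises were called for 16 members without PA 12 h replicate 1, 4 when PA 12 h replicate 2 was dropped, 3 without PA 24 h replicate 1 and 2 with PA 24 h replicate 2 left out. The calls of LDHA, ALDOC and GAPDH were lost without either PA 24 h library, and that of GAPDH also without PA 12 h replicate 2. Of 17 hypoxia genes outside glycolysis DDIT4 (0.70), P4HA1 (0.56) and NDRG1 (0.48) rose, and these calls were lost when either PA 24 h library was left out.

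Some enzymes of sterol synthesis rose in both arms. Of 20 enzymes 5 were higher from 12 h to 24 h of PA (median 0.29) and 13 in DMSO (median 0.86; 0.751% of all genes were higher there). TM7SF2, a sterol reductase, had 73.1 and 50.6 CPM at 12 h and 167 and 163 CPM at 24 h in PA and 7.53 and 5.18 CPM at 12 h and 16.5 and 13.6 CPM at 24 h in DMSO; it rose in both, by 1.41 and 1.24. EBP (1.06 and 0.91), MVD (1.05 and 1.42), FDPS (0.70 and 0.82) and ACAT2 (0.67 and 0.90) also rose in both. The number called in DMSO was 7 without DMSO 24 h replicate 2 and 1 when DMSO 12 h replicate 1 was dropped. All 13 were lost without DMSO 12 h replicate 2 or DMSO 24 h replicate 1. INSIG1, which holds the sterol sensor SCAP in the endoplasmic reticulum and is itself repressed by sterols (chr7:155297776-155310235, protein coding), had close values in PA, with 481 and 481 CPM at 12 h and 525 and 547 CPM at 24 h, and rose in DMSO, with 79.3 and 60.7 CPM at 12 h and 253 and 205 CPM at 24 h. The changes were 0.16 (adjusted p = 0.590) and 1.71 (adjusted p = 0.00117), and the difference was -1.55 ± 0.25 SE, adjusted p = 0.0205. All 4 DMSO libraries lay below all 4 PA libraries. The rise of INSIG1 in DMSO was called without each DMSO library. Its difference was not called without PA 24 h replicate 1 or 2, DMSO 12 h replicate 1 or 2 or DMSO 24 h replicate 1. The differences of the 20 enzymes did not pass the test, such as that of HMGCS1, the synthase that precedes HMG-CoA reductase (0.54 in PA, 1.69 in DMSO; difference adjusted p = 0.107); 3 were called negative without PA 12 h replicate 1, 2 when PA 12 h replicate 2 was dropped and 1 by DESeq2. In fatty acid synthesis ACSS2, which makes acetyl-CoA from acetate, had 375 and 249 CPM at 12 h and 701 and 881 CPM at 24 h (1.34 ± 0.22 SE, adjusted p = 0.00281) and ACLY rose by 0.63, as 2 of 11; SCD, the stearoyl-CoA desaturase, did not pass (0.49, adjusted p = 0.108). NPC2 (0.97) was the 1 of 12 genes for SREBP control and LDL uptake that rose, and APOE (1.04) and ABCA1 (0.97) the 2 of 9 for sterol efflux. Among all genes tested 6.59% were higher in PA.

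Of 14 NRF2 targets 6 were higher: FTH1 (1.06) and FTL (0.77), the ferritin chains, SLC7A11 (0.81), the cystine transporter, TXNRD1 (0.70), PRDX1 (0.58) and NQO1 (0.44). The median was 0.36, and the count was 3 when PA 12 h replicate 2 was dropped or PA 24 h replicate 1 and 2 with PA 24 h replicate 2 left out. TXNRD1, thioredoxin reductase, had 365 and 381 CPM at 12 h and 625 and 590.5 CPM at 24 h with PA and 311 and 323 CPM at 12 h and 277 and 267 CPM at 24 h with DMSO. It rose without overlap in PA, and its DMSO libraries were lower at 24 h. It was the 1 member with a called difference between the arms (0.92 ± 0.16 SE, adjusted p = 0.0257). That call was lost without PA 24 h replicate 1 or any 1 DMSO library. HMOX1, haem oxygenase, had 34.8 and 18.5 CPM at 12 h and 41.4 and 47.0 CPM at 24 h and did not pass the test (0.73, adjusted p = 0.0562). In iron handling, LCN2 (1.16) rose with the ferritins, and STEAP3, an endosomal iron reductase, went from 178 and 158 to 81.7 and 84.6 CPM (-1.01 ± 0.13 SE, adjusted p = 0.000811). MT1X (0.81) was the 1 of 5 tested metallothionein and zinc export genes that rose.

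Interferon-response genes were higher in 6 of 17, with a median of 0.38 in PA and 0.28 in DMSO. IFIT1, an RNA-binding effector, had 10.4 and 18.5 CPM at 12 h and 34.7 and 27.5 CPM at 24 h in PA. In DMSO it had 16.3 and 14.1 CPM at 12 h and 35.2 and 32.6 CPM at 24 h. It rose in both, by 1.10 and 1.16, and its rise in DMSO was not called without any 1 DMSO library. IFIT2 (0.99), ISG20 (0.95), IFI6 (0.89), ISG15 (0.78) and IFIT3 (0.62) also rose in PA, and with PA 24 h replicate 1 or replicate 2 left out the count was 1 and 2, respectively. NF-kB and inflammation genes split, with 4 of 19 higher and 3 lower. LIF, a cytokine of the IL-6 family, had 38.1 and 38.1 CPM at 12 h and 62.4 and 71.5 CPM at 24 h (0.81 ± 0.14 SE, adjusted p = 0.00371) with DMSO libraries close together (39.9 and 43.6 CPM at 12 h and 38.7 and 40.2 CPM at 24 h). CXCL8, interleukin 8, had 3.92 and 8.18 CPM at 12 h and 10.6 and 12.0 CPM at 24 h (0.90), CCL20 rose by 1.83 and IL11 by 1.81, from levels under 1 CPM at 12 h. NFKB1 (-0.85), TNFAIP3 (-0.75) and CXCL1 (-0.72) fell. Of the rises 1 was called without PA 24 h replicate 1, and 2 were called when PA 12 h replicate 1 or PA 24 h replicate 2 was dropped. Of 14 genes of the urokinase system and matrix proteases MMP10 rose (3.07), against 6.59% of all genes tested. It went from 0.0360 and 0.214 to 0.635 and 1.53 CPM. For MMP10 1 of the 12 h libraries was under the floor. MMP1, a collagenase, had a positive difference between the arms (1.17). The call of MMP1 was lost without any 1 DMSO library or either PA 24 h library.

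The deposited RPKM values gave fewer rises for several of these lists. With limma on log2(RPKM + 1), 1 of 29 cytosolic ribosomal proteins, 1 of 13 mitochondrial genes, 4 of 23 respiratory chain genes, 2 of 21 glycolysis genes, 2 of 14 NRF2 targets and 1 of 17 interferon-response genes were called higher. The stress list had 8 rises of 14 there, and mitosis had 13 falls of 37 and DNA replication 9 of 30.

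**Figure D4:**
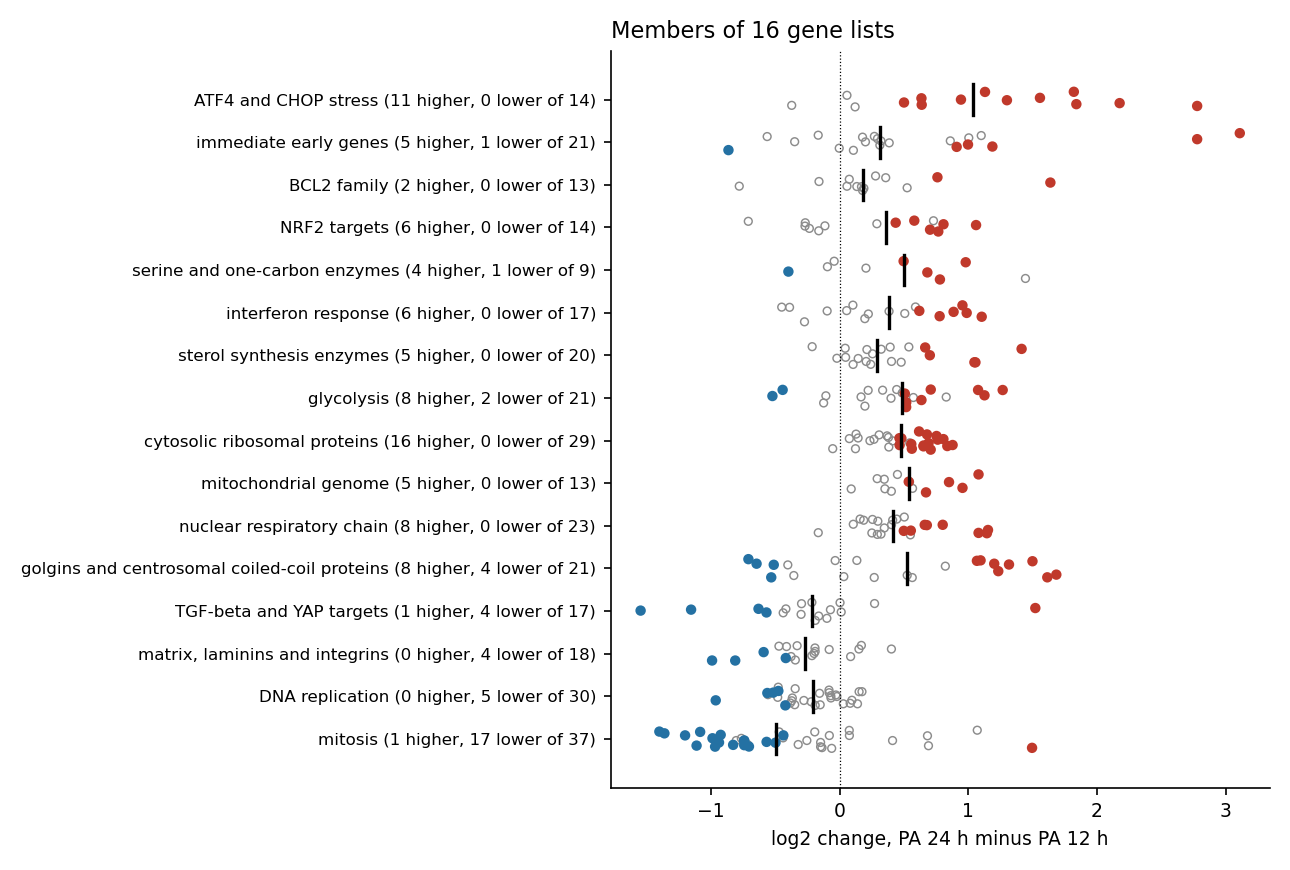
Log2 change from PA 12 h to PA 24 h of each tested member of 16 gene lists; red and blue points passed an adjusted p of 0.05 upward and downward, open grey points did not, and black bars are medians. The ATF4 and CHOP list has its median at 1.04 and the mitosis list at -0.50, with CENPE as its 1 red point.

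Several of the largest rises rested on 1 library. The 12 largest rises under the naming rule were KLF2, S100P (2.89), TRABD2A (2.85), ATF3, EPSTI1 (2.71), ZNF221 (2.67), PRRG2 (2.66), GPR21 (2.61), TIMP4 (2.48), HOXA10 (2.47), DPYSL5 (2.46) and IRX2 (2.41). In 7 of them PA 24 h replicate 1 was over 3-fold above replicate 2. TIMP4, an inhibitor of matrix metalloproteinases, had 26.2 and 17.8 CPM at 12 h and 208 and 36.8 CPM at 24 h, and HOXA10, a homeobox gene, had 2.27 and 1.79 CPM at 12 h and 18.9 and 3.49 CPM at 24 h. Both are high in PA 24 h replicate 1, and their replicate 2 is nearer to the 12 h libraries. Without PA 24 h replicate 1 the change of TIMP4 was 0.74, that of HOXA10 0.78, of EPSTI1 0.99, of PRRG2 0.97, of GPR21 0.82, of DPYSL5 0.92 and of IRX2 0.76, and all 7 lost their call. The calls of TIMP4, HOXA10 and GPR21 were also lost without PA 12 h replicate 2. The authors' RPKM values listed TIMP4 at 0 in all 4 PA libraries, EPSTI1 at 0.02 or less and DPYSL5 at 0.05 or less, although the mean levels from counts were 72.2, 28.0 and 63.5 CPM; both tables are the authors', and why they differ was not tested. Of the 51 genes over 3-fold higher in replicate 1 at 24 h, 24 were called higher. S100P, a calcium-binding protein of pancreatic cancer, had 0.719 and 0.357 CPM at 12 h and 3.42 and 4.60 CPM at 24 h. It started below 1 CPM, and no overlap was a condition of the naming rule. Its call and those of KLF2, TRABD2A, ATF3 and ZNF221 remained without each PA library.

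Among rises called without any 1 PA library, taken after their values were seen, were genes of the cytoskeleton and of stress. TUBA1A, an alpha tubulin isotype, had 587 and 292 CPM at 12 h and 1768 and 1643 CPM at 24 h (1.96 ± 0.32 SE, adjusted p = 0.00251), and TPPP3, a tubulin polymerisation protein, had 1.91 and 1.14 CPM at 12 h and 8.32 and 7.18 CPM at 24 h (2.34 ± 0.38 SE, adjusted p = 0.00251). TUBB2B rose by 1.80, and TSC22D3 (GILZ), a leucine zipper protein that glucocorticoids and FOXO factors induce, by 1.66. Each of these 4 had both later libraries above both earlier ones, and their differences between the arms were not called (adjusted p from 0.174 to 0.640). Among the 12 largest falls, ZNF792 had 4.57 and 3.00 CPM at 12 h and 0.917 and 1.22 CPM at 24 h (-1.82), SOX21, a neural transcription factor, 6.94 and 9.72 CPM at 12 h and 2.01 and 2.96 CPM at 24 h (-1.74), and PIF1, a DNA helicase, 3.13 and 3.68 CPM at 12 h and 0.987 and 1.15 CPM at 24 h (-1.67). No overlap of the 12 h and 24 h libraries was a condition of the naming rule for falls. All 3 were also among the genes named for a negative difference between the arms. UTP20 (-1.45), a factor of ribosome assembly, CDCA7 (-1.43), a MYC and E2F target, MARCH4 (-1.37; -1.62 in DMSO), FLRT2 (-1.32), ZNF234 (-1.41) and ZNF850 (-1.38) had no called difference, and the call of ZNF234 was lost without PA 24 h replicate 2. Of 421 zinc finger genes with ZNF symbols 25 were lower and 9 higher, with a median of -0.13. Over all genes tested 7.71% were lower and 6.59% higher, so the family as a whole did not stand out by falls. AXIN2, a feedback gene of Wnt signalling, had 3.27 and 2.89 CPM at 12 h and 1.02 and 0.802 CPM at 24 h in PA. In DMSO it had 4.90 and 4.49 CPM at 12 h and 5.16 and 4.89 CPM at 24 h. It fell in PA, and its change in DMSO was not called (0.0995, adjusted p = 0.872). The difference was -1.85, and its call was lost without any 1 DMSO library or either PA 24 h library.

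Golgins and centrosomal coiled-coil proteins, long proteins of the Golgi and the centrosome, were higher in 8 of 21 and lower in 4. GOLGB1, giantin, had 32.5 and 29.6 CPM at 12 h and 98.0 and 56.8 CPM at 24 h (1.32), and TRIP11, the golgin GMAP-210, had 5.07 and 6.25 CPM at 12 h and 22.5 and 12.2 CPM at 24 h (1.61); in both, replicate 1 at 24 h was the highest. Without PA 24 h replicate 1 all 8 rises lost their call, 3 members were lower and the median of 0.53 turned to -0.22. ANKRD12, a nuclear ankyrin repeat protein, had 9.07 and 11.6 CPM at 12 h and 32.0 and 16.7 CPM at 24 h and lost its call in the same way, with a change of 0.69. CEP250 (-0.71), GOLGA3 (-0.65), PCNT (-0.53) and GOLGA1 (-0.51) were lower. Relative to DMSO the list as a whole was low at both times, with a median log2 difference of -2.78 at 12 h and -1.95 at 24 h.

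Transcript length moved with the direction of change. The median length was 1919 nt for genes higher at PA 24 h, 5106 nt for genes lower and 3084 nt for all tested genes; median GC content was 49.8%, 48.2% and 48.8%. After a correction of each library for its trend on GC content and length, 3179 genes were called and the medians were 3008 and 3726 nt. Under that correction the ATF4 and CHOP list had 10 higher of 14 and the mitosis list 21 lower and 4 higher of 37, while the median of the cytosolic ribosomal proteins went to 0.26 with 13 higher. The libraries at 24 h had more negative slopes on length than those at 12 h, as given above, and whether RNA quality had a part was not tested. By gene type, 909 of 12841 tested protein-coding genes were higher and 1090 lower, 33 and 20 of 706 long intergenic noncoding RNAs, and 36 and 42 of 1107 antisense genes. Without a stated strand setting, reads of antisense genes and their partners cannot be told apart.

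Over the same hours in DMSO 356 of 15181 genes were called (2.35%), 114 higher (0.751%) and 242 lower (1.59%). The count was 15 without DMSO 12 h replicate 1, 5 when DMSO 12 h replicate 2 was dropped, 3 without DMSO 24 h replicate 1 and 58 with DMSO 24 h replicate 2 left out. The order of the arms depended on the fit: with only the libraries compared, DMSO gave 3947 calls and PA 2. In the fit of all 14 libraries, 178 of the 356 DMSO calls were called in PA in the same direction. That is 50% of the DMSO calls and 8.20% of the PA calls. Of all genes called in PA, 87.3% had the same sign in DMSO, against 69.2% of all genes tested; across genes, which are not independent replicates, the changes of the 2 arms had a Pearson correlation of 0.31 and a Spearman correlation of 0.45. Of the 40 positive differences 25 were called higher in PA, 20 were called lower in DMSO and 5 were both. BTG1, an antiproliferative gene (1.16 in PA, -0.14 in DMSO), JDP2, an AP-1 repressor (1.44, -0.13), and MAFF, a small MAF factor (1.19, -0.17), belonged to the first kind. F3, tissue factor (0.72, -1.38), THBD, thrombomodulin (0.92, -1.47), and VEGFC (0.43, -0.82) belonged to the second, with calls in DMSO alone. These calls and those of their differences were lost without any 1 DMSO library. All genes named for the 2 kinds but THBD were picked after their values were seen. A call in one arm and not in the other does not by itself show a difference: 48 of the 2171 genes called in PA had a called difference between the arms. At 12 h 48.5% and at 24 h 54.6% of tested genes differed between PA and DMSO.

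**Figure D5:**
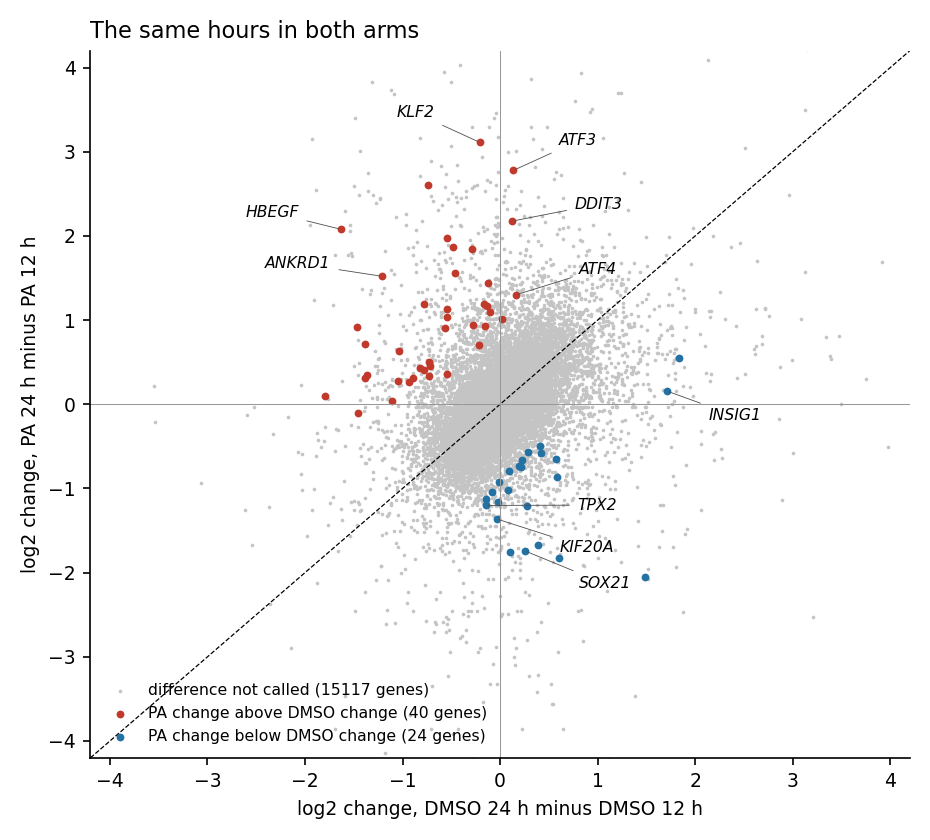
Log2 change from 12 h to 24 h in PA against that in DMSO for the genes tested; the dashed line marks equal change, and 49 genes lie beyond the axes at 4.2. Red and blue points are the 40 and 24 genes whose PA change was above or below the DMSO change at an adjusted p under 0.05, with HBEGF and ANKRD1 at upper left and INSIG1 at right.

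The remaining lists had few calls each. Their counts are read against all genes tested, of which 6.59% were higher and 7.71% lower. Of 18 tested epithelial genes CLDN7 (0.91), KRT18 (0.69) and KRT8 (0.60) were higher, and of 11 mesenchymal genes SPARC (1.16) was higher and FOXC2 (-0.64) and TNC (-0.59) lower. The call of SPARC was lost without PA 24 h replicate 1 (0.80) or PA 12 h replicate 2, that of TNC without either PA 24 h library, and that of FOXC2 without any 1 PA library but PA 12 h replicate 2. Of 9 ductal markers KRT8 and KRT18 were higher. Of 31 tested proteasome subunit entries PSMD4 (0.55), PSMB1 (0.51) and PSMC1 (0.41) rose, and of 16 autophagy genes GABARAPL1 (1.13) and MAP1LC3B (0.54) rose while ATG16L1 (-0.53) fell. Of 18 lysosome genes 2 rose, CTSL (0.75) among them. Of 8 aryl hydrocarbon receptor targets NQO1 rose, and AHRR (-0.72) and CYP1B1 (-1.07) fell, the last from 144 and 329.6 to 131 and 93.9 CPM. CYP1B1 stood high in PA 12 h replicate 2; without it the change was -0.36 and the call was lost. It was also lost without either PA 24 h library. The call of AHRR was lost without PA 24 h replicate 1. NEAT1 (0.91) and GAS5 (0.77) rose and TUG1 (-0.59) fell among 8 entries for retained nuclear RNAs. The calls of GAS5 and TUG1 were lost when PA 12 h replicate 2 (0.48 and -0.31) or either PA 24 h library was dropped. Replication histones had HIST1H2BD (0.62) and HIST1H1C (0.50) higher of 13, the E2F and pocket protein list TFDP1 (-0.60) and RBL1 (-0.98) lower of 12, the damage kinase list MDC1 (-0.60) lower beside PRKDC of 16, and the deoxynucleotide list RRM2 (-0.51) lower of 10. DBP (0.70) rose and PER3 (-0.66) fell among 13 clock genes. The 7 genes of the pentose phosphate pathway did not pass the test and had a median of 0.33; 4 of them were called higher without PA 12 h replicate 1. Summed over the 18 lists with few calls (aminoacyl-tRNA synthetases, chaperones, heat shock, fatty acid synthesis, efflux, iron, metallothioneins and those of this paragraph apart from ductal markers, damage kinases and pentose phosphate), 28 of 242 list places were higher and 15 lower. When PA 12 h replicate 1 was dropped these numbers were 59 and 38, when PA 12 h replicate 2 was dropped 25 and 18, when PA 24 h replicate 1 was dropped 10 and 4, and when PA 24 h replicate 2 was dropped 8 and 7.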

How the data were processed

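RNA from 14 PANC-1 libraries was sequenced as 151-nt pairs on an Illumina NextSeq 500 after Trizol lysis, per the labels' protocols. TopHat2, edgeR and GRCh38 are named in the submitters' processing notes; versions, counting tool, annotation and strand setting were not given in the sources used here. The deposited tables hold whole-number read counts per gene and RPKM values, both made by the authors. Counts were analysed with edgeR 4.0.16 (R 4.3.3): TMM factors, filterByExpr (15181 of 28120 genes), 1 mean per group over all 14 libraries, the quasi-likelihood test with 7 residual degrees of freedom, Benjamini-Hochberg adjustment over all genes tested and a threshold of 0.05. SE is the log2 change divided by the square root of F. At least 99.953% of reads lay in tested genes. Groups came from the labels' agent and hour. The difference between arms is the PA change minus the DMSO change. DESeq2 1.42.0, limma 3.58.1 on log2(RPKM + pseudocount), other filters, a GC and length correction (GENCODE 29, 15071 genes) and fits without each library were alternatives. On simulated counts for 14816 genes, the PA test recovered 84% of 100 genes changed 2-fold and 100% of 100 changed 4-fold. The difference test recovered 43% and 100%. False calls numbered 5 in the PA test and 11 in the difference test. Simulated libraries all had the same spread for a gene, without the wider gaps between PA replicates or trends on GC content and length. Recovery under those features was not tested.

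The groups and gene lists were chosen with earlier results of these data known. Genes were named by a rule: the 12 largest called rises and falls with a mean of at least 2 CPM and no overlap of the 2 times, from every list with at least 25% of its tested members called the 3 or fewer called members of lowest p, the 6 largest differences between arms each way, and CENPE, ANKRD12, ALDOC, ACSS2, SCD, INSIG1, CDKN1A, MKI67, HMOX1, CXCL8 and GAPDH; clone names were left out, and every other gene named was chosen after its values were seen. Positions are GRCh38 (GENCODE 29), 1-based. Results for a few genes are not reported here.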

Additional observations from a re-analysis of the deposited data

Results flagged for a closer look

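For 19 named genes the change from 12 h to 24 h differed between PA and DMSO by the test of the difference itself (edgeR's quasi-likelihood test, adjusted p under 0.05). Stress genes had positive log2 differences: ATF3 2.64, DDIT3 2.05, ATF4 1.14, GADD45A 1.58 and TXNRD1 0.92. So had the transcription factor KLF2 (3.32), the ligand HBEGF (3.71), the YAP target ANKRD1 (2.74), the phosphatase DUSP5 (1.97), thrombomodulin THBD (2.39) and FAM159B (2.52), whose RPKM values in the authors' table were near 0. Negative differences were those of the mitotic genes KIF20A (-1.33) and TPX2 (-1.06), the centromere gene OIP5 (-1.49), the helicase PIF1 (-2.06), the transcription factors ZNF792 (-2.42) and SOX21 (-2.0), the Wnt feedback gene AXIN2 (-1.85) and the sterol regulator INSIG1 (-1.55). Of the 19, ATF3, HBEGF and ANKRD1 were called without each of the 8 libraries. Groups held 2 libraries, so no library could be tested as far from the others of its group.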

How the results depend on the processing

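From 12 h to 24 h of PA 2171 genes were called. The count was 2 when only the compared libraries were fitted (2187 at an unadjusted p under 0.05) and 3 with a minimum change of 2-fold, and lay between 780 and 4332 with 1 library left out. Other settings gave 1823 (replicate block) to 3179 (GC and length correction). In DMSO 356 were called, against 827 by DESeq2, 651 with no filter, 198 with the replicate block, 3947 from the compared libraries alone (where DMSO, not PA, had more calls), 933 with the GC and length correction (769 with the block as well) and 3 to 58 with 1 library left out; a minimum of 2-fold left 0 by edgeR's glmTreat (96 at an unadjusted p under 0.05). The difference between arms had 64 calls, against 203 by DESeq2, 269 with no filter, 23 with the replicate block, 3 with a 2-fold minimum, 331 with the GC and length correction (257 with the block as well), 100 and 106 by limma on log2(RPKM + 1) and log2(RPKM + 0.1) and 4 to 522 with 1 library left out; the compared libraries alone gave 0 by edgeR (1128 at an unadjusted p under 0.05). The fit of all 14 libraries shares 1 estimate of the spread over all groups, and fewer libraries leave fewer degrees of freedom. With the compared libraries alone, calls fell in PA and rose in DMSO. What part either feature had in this was not tested. A library left alone in its group is assumed to vary like the other groups.

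In RPKM the change of TIMP4, listed at 0 in the PA libraries, was 0 with either pseudocount. Sign turned in RPKM for EPSTI1 (-7.07e-05 with a pseudocount of 1 and -0.00599 with 0.1), DPYSL5 (-0.0280 and -0.22) and INSIG1 (-0.0514 with a pseudocount of 1, with and without a minimum RPKM, and -0.0518 with 0.1). Over the 90 named genes and all settings, 1081 values kept direction and side of the threshold, 315 lost the threshold, 15 gained it and 9 turned sign or went to 0; 84 of the losses came with only the compared libraries and 83 with the 2-fold minimum. Differences across genes between replicates 1 and 2 were little alike from group to group. Those of PA 12 h and PA 24 h correlated at -0.17, and 2 of 21 pairs of groups passed 0.1. Each library also had its own trend on GC content and length, so this cannot tell whether libraries of a replicate number were handled together. Depth limits genes under about 0.108 CPM.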
